A study of Drosophila melanogaster with 2 samples.

Results

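A summit is the base of a ChIP-seq peak with the highest signal, and 1725 of the 8170 reproducible CG3032 summits (21.1%, 95% exact interval 20.2% to 22%) lay just upstream of a single promoter. A summit was a member when its nearest protein-coding transcription start site (TSS) was 1 to 500 bp away, when it lay upstream of that TSS in the direction of transcription, and when it did not lie between the start sites of a divergent gene pair. Such a pair was a minus-strand TSS on the left and a plus-strand TSS on the right, 50 to 500 bp apart. The remaining summits were 840 between divergent pairs, 503 at or downstream of the nearest TSS within the same 500 bp, and 5102 elsewhere. The chromatin was that of intact Drosophila melanogaster prepupae, aged 24 hours and of both sexes in 1 pool, from a transgenic line with a stable copy of CG3032 carrying the green fluorescent protein eGFP at its C-terminus. Chromatin fragments of 200 to 800 bp were precipitated with an antibody against GFP, in 2 biological replicates that the labels number 2 and 3. There was 1 group, every animal carried the fusion gene, and no control library was analysed here. Because whole animals were used, a site bound in fewer cells and a site bound more weakly in each cell cannot be told apart.

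A promoter is the stretch of DNA at which RNA polymerase II is assembled, and in Drosophila short DNA elements near the TSS help to define it. The TATA box, bound by TBP, and the initiator belong mainly to regulated genes. Housekeeping genes mainly carry other elements, among them the DNA replication-related element (DRE), which is bound by Dref and BEAF-32, Motif 1, which is bound by the zinc finger protein M1BP, and the elements known as Ohler motifs 6 and 7. The DNA just upstream of an active promoter is usually depleted of nucleosomes and is where many DNA-binding proteins are found by ChIP-seq. A single promoter sends its coding transcript in 1 direction, whereas a divergent pair shares such a stretch between neighbouring genes.

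The DNA under the strongest of these summits, read in the direction of transcription of the nearest gene, is shown for 6 of the 20 strongest. Stretches from 1 chromosome arm and stretches that overlap an annotated exon are not shown, here or in the other sets, and the 6 are the strongest of the rest. Each stretch holds 61 bases with the summit at base 31, from the RefSeq copy of the dm6 assembly, and capitals mark a TATAAA word or its reverse complement.
Ugalt at chrX:2703855-2703915, minus strand: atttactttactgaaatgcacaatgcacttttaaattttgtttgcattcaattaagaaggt
CG14100 at chr3L:19590593-19590653, minus strand: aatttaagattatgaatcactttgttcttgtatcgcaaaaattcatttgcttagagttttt
CG18549 at chr3R:12449142-12449202, plus strand: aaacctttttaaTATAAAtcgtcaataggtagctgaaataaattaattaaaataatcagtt
larp at chr3R:28326567-28326627, minus strand: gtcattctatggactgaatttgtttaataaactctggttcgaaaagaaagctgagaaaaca
ph-p at chrX:2137296-2137356, minus strand: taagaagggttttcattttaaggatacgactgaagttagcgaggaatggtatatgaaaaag
CG13921 at chr3L:1746745-1746805, plus strand: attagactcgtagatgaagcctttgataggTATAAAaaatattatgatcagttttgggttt
The summits of Ugalt, CG14100, CG18549 and CG13921 were intergenic, and those of larp and ph-p lay in an intron of the same gene, upstream of an internal TSS. The 6 stretches were rich in A and T, between 65.6% in ph-p and 80.3% in CG18549. CG18549 and CG13921 held TATAAA in the stretch, and neither DRE nor Motif 1 was found in any of the 6. Both elements were rare, within 100 bp of the summit in 5.04% and 2.90% of all members, so their absence from 6 stretches says little.

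A second set shows 4 of the elements that were commoner at the summits than in the DNA to either side; no stretch is shown for Ohler motif 6. The stretches are those of the strongest members, among those that could be shown, with the element within the 61 bases, and the element is in capitals: DRE (TATCGATA) in eEF1gamma, Motif 1 (GGTCACACT) in CycB3, Ohler motif 7 in wake and an AT repeat (ATATATAT) in bbg.
eEF1gamma at chr3R:29220100-29220160, plus strand: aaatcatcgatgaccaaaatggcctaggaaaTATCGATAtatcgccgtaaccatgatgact
CycB3 at chr3R:24870849-24870909, minus strand: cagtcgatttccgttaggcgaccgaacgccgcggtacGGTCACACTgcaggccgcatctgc
wake at chr3R:22673679-22673739, plus strand: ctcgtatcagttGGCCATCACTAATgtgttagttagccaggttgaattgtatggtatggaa
bbg at chr3L:14448853-14448913, minus strand: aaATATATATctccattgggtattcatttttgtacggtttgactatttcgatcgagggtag
The summits differed in strength. The eEF1gamma summit had a signal of 692 in the reproducible list, 207 in replicate 2 and 488 in replicate 3, and the CycB3 summit 176, 46.7 and 130. The wake summit had 454, 154 and 305, and the bbg summit 1777, 400 and 1356. eEF1gamma, a translation elongation factor subunit, and CycB3, a mitotic cyclin, had their summits 42 bp and 63 bp upstream of the TSS. The summits of wake and bbg were 278 bp and 310 bp upstream of internal start sites, in introns.

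The signal values were set by the authors' peak calling, in units that neither labels nor headers explain, so they were compared only within a list. The reproducible list was thresholded by the irreproducible discovery rate (IDR), a measure of how well peak ranks repeat between replicates. Its signals are those of peaks called on both replicates together and ranged between 150.5 and 7902. Read depth is unknown, and the intervals on shares cover counting error over summits or genes only. Members are sites within the same pair of libraries, not replicates.

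The single-promoter label was not strict for every member. Start sites of 1 protein-coding gene lay within 500 bp of 1548 members (89.7%), and those of 2 or more genes lay near the other 177. For 1449 members (84.0%), no coding TSS of another gene lay in the 1000 bp upstream of the member's nearest TSS. The closest such TSS within that distance was on the opposite strand for 243 members (14.1%) and on the same strand for 33. Other start sites of the same gene were left out of these counts. A noncoding gene started within 500 bp of 144 members, and 1 member had a pair of start sites at the same distance. CG3032 itself was not a member: its summit, 109 bp upstream of its TSS on chromosome X with a signal of 1661, lay between a divergent pair.

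Members were centred closer to the TSS than the 500 bp limit required. The median distance was 171 bp, with quartiles of 96 and 267 bp and a range of 1 to 498 bp. There were 4.24 summits per bp of distance at 1 to 50 bp, 4.96 over 50 and up to 100 bp, 5.59 up to 200 bp, 3.68 up to 300 bp and 1.69 up to 500 bp. The density thus had its highest value between 100 and 200 bp and its lowest beyond 300 bp. Just inside the limit lay the summits of CG32512 at 498 bp (signal 573) and CG11899 at 496 bp (177), and just outside it those of CG43066 and CG6891, both at 502 bp (225 and 1077). Among the 8170 strongest peaks of each replicate on its own, the rule found 1797 summits with a median distance of 185 bp in replicate 2 and 1650 with a median of 167 bp in replicate 3.

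**Figure D1:**
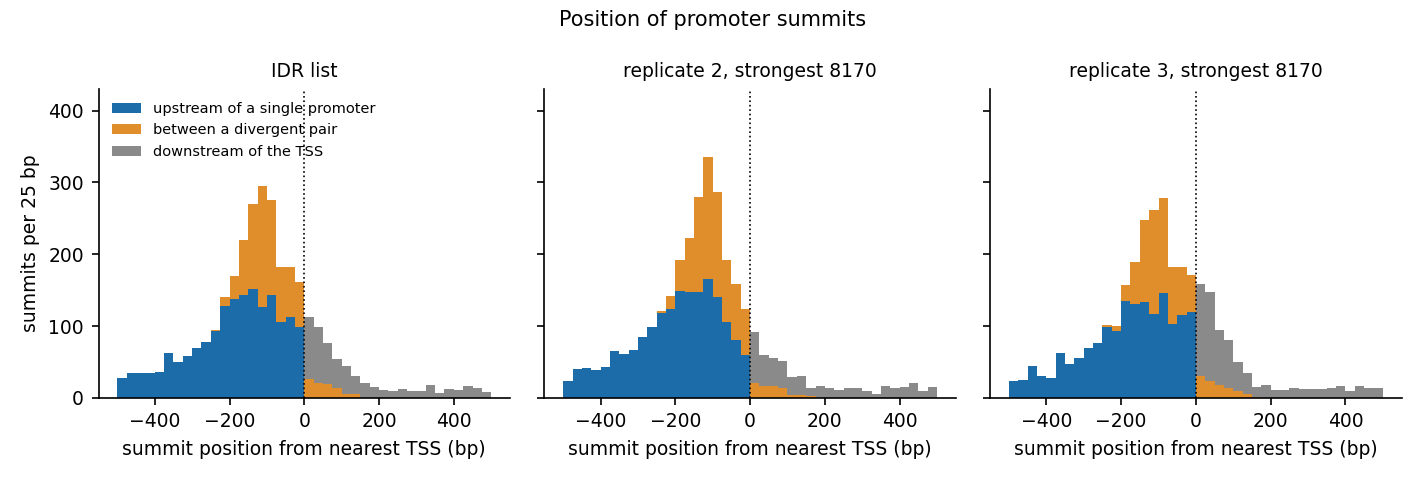
Number of summits per 25 bp (vertical axis) by position from the nearest protein-coding TSS in bp (horizontal axis, upstream negative), for the IDR list and the equally many strongest peaks of each replicate; colours give the 3 promoter classes, stacked. In each list the summits upstream of single promoters form a broad hump upstream of the TSS, with a median of 171 bp in the IDR list, 185 bp in replicate 2 and 167 bp in replicate 3.

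The members included the strongest summit of the whole series. Members made up 30 of the 100 strongest IDR summits (30%, interval 21.2% to 40%), 117 of the strongest 400 (29.3%, 24.8% to 34.0%) and 252 of the strongest 1000 (25.2%, 22.5% to 28.0%), beside 21.1% of all. The share was highest among the strongest ranks. The median signal was 291.5 for members and 303.1 for the other 6445 summits in the IDR list, a difference of -11.7. At summits matched within 100 bp in a replicate list, the medians were 111.8 for members and 105.7 for others in replicate 2 (6.12 higher), and 208.6 for members and 212.7 for others in replicate 3 (4.18 lower, a difference of -4.18). The replicates thus gave opposite signs, and no difference in median signal was established. By class, the IDR medians were 291.5 for members, 369.4 for divergent summits, 220.2 for downstream summits and 302.9 elsewhere. Members lay between the other promoter classes in both replicates too: in replicate 2 the medians were 111.8, 150.2 for divergent and 73.1 for downstream summits, and in replicate 3 they were 208.6, 235.2 and 170.0.

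The replicates repeated most members. A summit within 100 bp was present in both replicate lists for 1518 members (88.0%, interval 86.4% to 89.5%), beside 5913 of the 6445 others (91.7%, 91.0% to 92.4%). By class the share was 91.5% of divergent and 82.1% of downstream summits. A partner was missing in replicate 2 alone for 120 members, in replicate 3 alone for 83 and in both for 4. The IDR list was derived from the replicate lists, so part of this agreement is built in. Over the members found in both lists, Spearman's rho between the replicates' signals was 0.77 (n = 1518), and over the others it was 0.80 (n = 5913). These points share 1 pair of libraries.

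The 20 strongest members that were found in both replicates stood at IDR ranks of 54 or better, at replicate 2 ranks of 118 or better and at replicate 3 ranks of 75 or better. Their distances ran between 33 and 471 bp, with a median of 157 bp. Ugalt, which carries UDP-galactose into the Golgi, had the highest signal of all IDR summits, 7902, with 2616 in replicate 2 and 5317 in replicate 3. CG14100 followed with 6602 (2589 in replicate 2 and 4031 in replicate 3), and CG18549 with 5772 (1664 and 4136). These 3 genes had their summits 33, 99 and 124 bp upstream.

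The rest of the 20 held genes of varied function. larp, an RNA-binding protein of translation control, had 5275 (1574 in replicate 2 and 3708 in replicate 3), 333 bp upstream of an internal TSS. mRpL41, a protein of the mitochondrial ribosome, had 4938 (1812 and 3116), and another IDR summit stood 199 bp from it. scb, an integrin subunit, had 4553 (1678 and 2895), and ph-p, a Polycomb group protein, 4508 (1598 and 2970). Fkbp14, a prolyl isomerase of the endoplasmic reticulum, had 4037, CG13921 3975, osp 3709 and C1GalTA, a glycosyltransferase of the Golgi, 3627. Gapdh2, an enzyme of glycolysis, had 3614 (871 in replicate 2 and 2755 in replicate 3), and Hsp27, a small heat shock protein, 3606 (935 and 2680). The last 7 ran between 3146 and 3394: gish, a casein kinase, eIF6, a ribosome assembly and translation factor, Trp1, Sox14, an ecdysone-induced transcription factor, Lpin, a phosphatidate phosphatase, CG1888 and CG31145. All 20 had start sites of a single coding gene within 500 bp. None had DRE or Motif 1 within 100 bp of the summit, beside 5.04% and 2.90% of all members. TATAAA was there in 7 of the 20, beside 38.5%. Ohler motif 7 was in none, beside 5.68%, and Ohler motif 6 in 1, mRpL41, beside 0.986%. These 20 are too few to set apart from those shares, and no test was made.

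**Figure D2:**
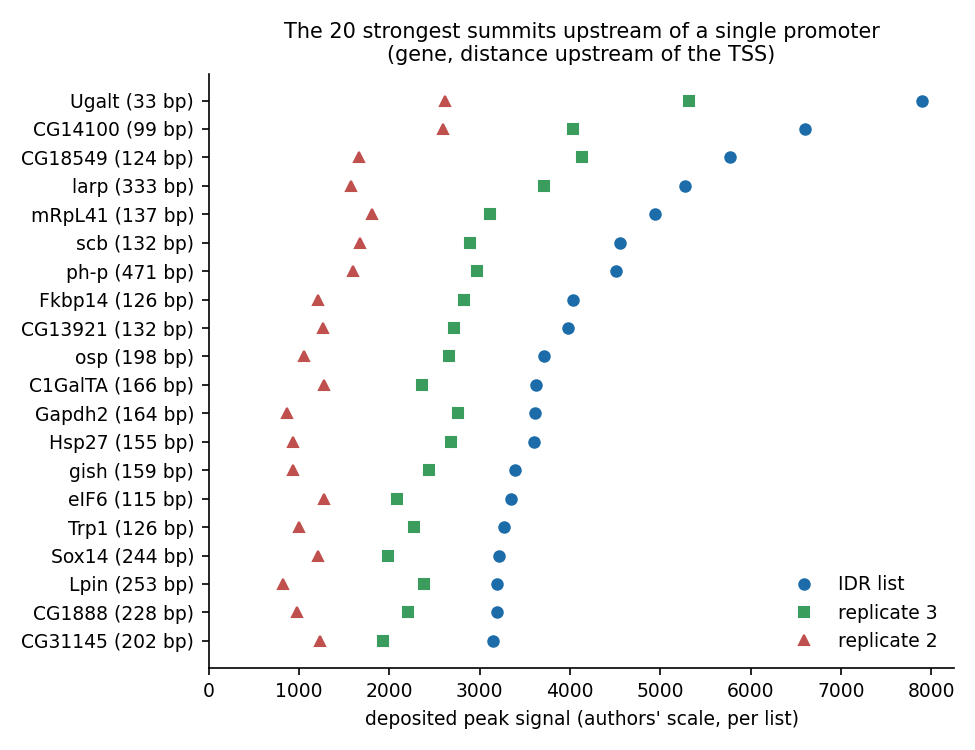
Deposited peak signal on the authors' scale (horizontal axis) of the 20 strongest members, with the gene and its distance upstream on the vertical axis; circles are the IDR list, squares replicate 3 and triangles replicate 2. IDR signals run between 3146 for CG31145 and 7902 for Ugalt, and replicate 2 signals between 823 and 2616.

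At the other end, CG33648, br and MED24 had the lowest member signals, 150.9, 150.8 and 150.7. CG33648 had 50.2 in replicate 2 and no partner in replicate 3. br, the Broad transcription factor of metamorphosis, had 22.1 in replicate 2 and 111 in replicate 3, and MED24, a Mediator subunit, 25.6 and 123. Among the peaks of each replicate, br stood at rank 22114 in replicate 2 and 7763 in replicate 3, and MED24 at 18120 and 7004. These members stood at the floor of the IDR list, and both of these ranked lower in replicate 2.

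Signal was lower close to the TSS. The median IDR signal was 210.8 for the 212 members at 1 to 50 bp, 236.1 for the 248 over 50 and up to 100 bp, 323.8 for the 559 up to 200 bp, 385.4 for the 368 up to 300 bp and 361.5 for the 338 up to 500 bp. In replicate 2 the same classes had 65.4, 89.4, 117.1, 145.3 and 133.9, and in replicate 3 they had 151.5, 158.5, 236.0, 275.5 and 243.2. Both replicates therefore had their lowest median in the closest class and their highest between 200 and 300 bp. Spearman's rho of signal with distance over members was 0.26 for IDR signals (n = 1725), 0.27 for replicate 2 (n = 1601) and 0.24 for replicate 3 (n = 1638). The quartiles of neighbouring distance classes overlapped widely, and Ugalt, at 33 bp, had the highest signal of all. The share found in both replicates was lowest in the class up to 100 bp, 83.9%, and ran between 88.0% and 89.1% in the other classes.

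**Figure D3:**
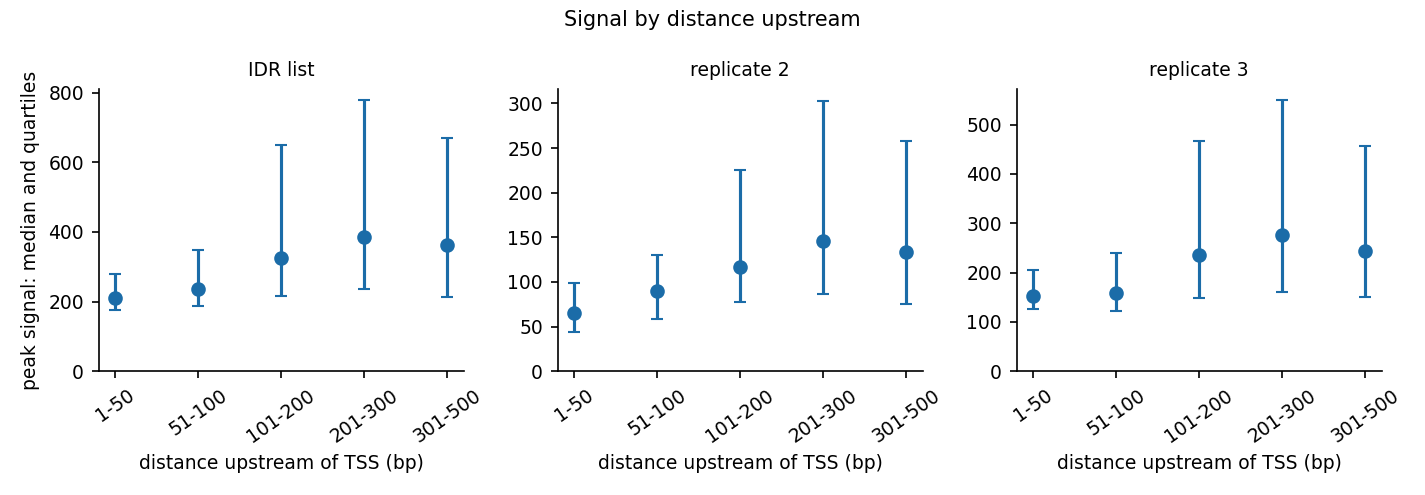
Median peak signal with quartiles (vertical axis, authors' scale of each list) by distance upstream of the TSS in bp (horizontal axis), for IDR signals and at the matched summits of each replicate. The median is lowest at 1 to 50 bp (210.8 in the IDR list) and highest between 200 and 300 bp (385.4) in all 3 panels.

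The DNA at the members was rich in A and T. Windows reaching 100 bp to either side of the summit held 65.0% A+T on average, beside 59.7% in windows of the same length centred 500 bp upstream and 53.7% in windows centred 500 bp downstream. All 19253 coding start sites had 62.1% in a window of that length centred 171 bp upstream, and the 14482 of them with no IDR summit within 500 bp had 61.1%. The other IDR summits had 65.7%, close to the members. A+T rose with distance among members, 58.2% at 1 to 50 bp, 61.7% up to 100 bp, 65.7% up to 200 bp, 67.6% up to 300 bp and 67.9% up to 500 bp. With members ranked by IDR signal into 4 groups of equal size, it was also highest in the strongest group, 67.8%, and lowest in the weakest, 62.3%. Ranked by replicate 2's own signal the strongest and weakest groups had 68.1% and 61.3%. By replicate 3's own signal the strongest had 67.4%, the third 63.0% and the weakest 64.0%, so there the third was lowest. Spearman's rho of signal with G+C was -0.25 for IDR signals, -0.32 for replicate 2 and -0.19 for replicate 3. Within single distance classes it was weaker, between -0.05 and -0.17 for IDR signals and between -0.16 and -0.26 for replicate 2, and in the closest class of replicate 3 it was positive (0.09). G+C and distance moved together over members (rho -0.38), and their separate parts in the signal were not tested.

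Of the 16 sequence elements counted, 6 were commoner within 100 bp of the members' summits than in both flanking windows: DRE, Motif 1, Ohler motif 6, Ohler motif 7, the TATA box word and the AT repeat. The windows at each summit were compared with a two-sided exact binomial test on those members that held the element in just 1 window of the pair, adjusted by Benjamini-Hochberg over 16 elements, 4 position classes and both flanks, with a threshold of 0.05. Over all 64 pairs of element and class, 37.5% were above both flanks and 9.38% below both, so 6 of 16 was the background share. No element was below both flanks in members with the windows as described. Elements were searched on both strands.

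The housekeeping elements were rare, and commoner at the summit than beside it. Members lie within 500 bp upstream of a TSS and the flanks 500 bp away, so elements that sit near the TSS can favour the summit window by position. These tests cannot separate that from a preference of the summits themselves. DRE (TATCGATA) was in 87 members (5.04%), beside 1.62% of upstream and 0.348% of downstream flanks (exact test, adjusted p = 1.2e-07 and 1.6e-18). A window of the same length centred 171 bp upstream of each coding start site held it in 2.90% of cases. Members' windows were centred on their own summits, so for DRE and Motif 1 the comparison with start sites is not matched for distance. Motif 1 (GGTCACACT) was in 50 members (2.90%), beside 0.406% and 0.290% of the flanks (exact test, adjusted p = 1.7e-08 and 1e-09) and 1.43% of all coding start sites. Ohler motif 7 was in 98 members (5.68%), beside 2.26% and 2.09% of the flanks (exact test, adjusted p = 1.1e-06 and 2.9e-07). Ohler motif 6 was in 17 members (0.986%), beside 0.232% and 0.116% (exact test, adjusted p = 0.0146 and 0.00173), the smallest count of the 6. Divergent summits held DRE at 10.6%, Motif 1 at 3.69%, Ohler motif 6 at 2.26% and Ohler motif 7 at 14.6%. Downstream promoter summits held DRE at 6.36%, Motif 1 at 4.17%, Ohler motif 6 at 0.596% and Ohler motif 7 at 7.75%. All but the downstream share of Ohler motif 6 were above the members' shares, and the difference between the classes was not tested.

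The words rich in A and T were commoner in number. TATAAA was in 664 members (38.5%), beside 27.7% of upstream and 14.1% of downstream flanks (exact test, adjusted p = 2.4e-10 and 1.6e-57). It was in 32% of the windows centred 171 bp upstream of all coding start sites, which are not matched for distance. ATATATAT was in 125 members (7.25%), beside 4.29% and 2.67% (exact test, adjusted p = 6.5e-04 and 1.6e-09). Members' windows with TATAAA averaged 68.7% A+T and those without it 62.7%, and for ATATATAT the values were 70.1% and 64.6%. The part of the A+T share in these words was not tested. Few members held the word at the usual place of a TATA box: it was on the coding strand 20 to 40 bp upstream of the TSS in 54 members (3.13%, interval 2.36% to 4.06%), beside 6.19% of all coding start sites and 7.51% of those without an IDR summit nearby. The initiator core TCAGT within 10 bp of the TSS was in 16.3% of members (14.6% to 18.1%), beside 13.1% and 14.2% of those start sites. Around the summit itself TCAGT was in 32.5% of members, beside 26.4% and 29.2% of the flanks, and passed the test against the upstream flank alone (exact test, adjusted p = 2e-04 and 0.0699).

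The other 9 elements were likewise not above both flanks in members. The E-box words CAGCTG (8% of members) and CACGTG (1.80%) and the CRE word (0.406%) passed against neither flank. A tract of 8 A (14.1%) passed against the upstream flank alone, where it was in 11.0% (exact test, adjusted p = 0.0116). The CTCF core (4.52%, beside 11.5%) and the GAGA word (22.3%, beside 26%) were lower than the downstream flank alone. The su(Hw) core (0.812%, beside 0.116%), GATA (2.96%, beside 1.57%) and the Forkhead word (5.57%, beside 3.59%) were higher than the downstream flank alone. Some of these calls depended on the setting. The CTCF core was below both flanks in 4 of 7 alternative settings, among them flanks at 1000 bp (4.52%, beside 8.75% and 10.1%), and its exact adjusted p ran between 2.6e-06 and 0.448 over the 7. GAGA was below both flanks in 2 of the 7 settings, without replicate 3 and among members more than 100 bp upstream, and the words CAGCTG and CACGTG in 1 each. The initiator core and the tract of 8 A were each above both flanks in 2 of the 7 settings, with flanks at 1000 bp in both cases. A missing word says only that those letters were not in the window.

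Words of 8 bases chosen on the 656 members of arms 2L, 2R and chromosome 4, then tested on the 1069 members of the other arms, gave words of the same elements. Of the 10 words with the highest ratio of summits to flanks, 6 (60%) were above both flanks in the tested members. TATCGATA is DRE, CATCGATA, ATCGATAG and ACTATCGA share most of their letters with it, and AGTGTGAC and GGTCACAC are parts of Motif 1. TATCGATA was in 4.96% of tested members, beside 1.5% and 0.561% of their flanks (exact test, adjusted p = 3.6e-05 and 3.5e-09), and GGTCACAC in 3.37%, beside 0.748% of either flank (exact test, adjusted p = 6.4e-05 for both). AACTTATA, ATTCGATA, CAATATTA and AAGTTATT did not pass against both flanks. The limit set by the position of the flanks holds for these words too.

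The members with DRE or Motif 1 were not the strong ones. DRE was in 6 members of the strongest of the 4 signal groups, 13 of the second, 32 of the third and 36 of the weakest (1.39%, 3.02%, 7.42% and 8.35%). By replicate 2's own signal the counts were 5, 11, 32 and 35, and by replicate 3's own they were 5, 14, 23 and 38. Motif 1 was in 1, 12, 11 and 26 members of the 4 groups by IDR signal, in that order. TATAAA ran the other way, with 187, 175, 158 and 144 members by IDR signal and 173, 170, 164 and 123 by replicate 2's own. Replicate 3's own signal gave 171, 167, 145 and 148, so there the third group was lowest. The part of A+T and distance in this order was not tested. The median IDR signal was 214.1 for the 87 members with DRE and 302.3 for the 1638 without (82.1 and 114.4 in replicate 2, 139.4 and 213.8 in replicate 3). It was 202.3 for the 50 members with Motif 1 and 296.8 for the 1675 without. Among the 840 members in the stronger 4085 IDR peaks, TATAAA and ATATATAT were above both flanks. DRE (2.02%, exact test, adjusted p = 0.541), Motif 1 (1.55%, 0.297), Ohler motif 6 (0.595%, 0.667) and Ohler motif 7 (3.33%, 0.251) were not, with the larger p of both flanks given. Over 7 alternative settings that p ran between 1.8e-15 and 0.541 for DRE, 5.5e-09 and 0.297 for Motif 1, 0.0099 and 0.667 for Ohler motif 6, and 3.4e-08 and 0.658 for Ohler motif 7 in exact tests. Ohler motif 6, the element with the fewest members, was also not above both flanks in windows of 50 bp to either side or with flanks at 1000 bp.

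DRE, Motif 1 and Ohler motif 7 also sat close to the TSS. The 17 members with Ohler motif 6 lay further out, a median of 142 bp upstream, beside 171.5 bp for those without it. Members with DRE lay a median of 73 bp upstream and those without 179 bp, and members with Motif 1 61 bp and those without 175 bp. DRE was in 13.7% of members at 1 to 50 bp, 10.1% up to 100 bp, 4.65% up to 200 bp, 0.815% up to 300 bp and 1.18% up to 500 bp. Motif 1 was in 11.3%, 4.84%, 1.43%, 1.63% and 0 of the same classes, the last being 0 of 338 members with an exact upper bound of 1.09%. Ohler motif 7 was in 12.3%, 14.1%, 3.22%, 3.53% and 1.78%. The centre of DRE was a median of 53 bp upstream of the TSS and 13 bp downstream of the summit. Motif 1 was centred a median of 33 bp upstream of the TSS, on the coding strand in 34 members and on the other in 16. Among the 1265 members more than 100 bp upstream, 3 of the 16 elements were above both flanks. They were TATAAA, ATATATAT and Ohler motif 6 (0.949%, exact test, adjusted p = 0.0267). DRE (2.61%, exact test, adjusted p = 0.27), Motif 1 (1.11%, 0.285) and Ohler motif 7 (2.92%, 0.658) no longer passed. Within 100 bp of the TSS, the median signal was 216.5 with DRE (54 members) and 224.4 without. Beyond it the medians were 213.7 with DRE (33 members) and 360.3 without.

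**Figure D4:**
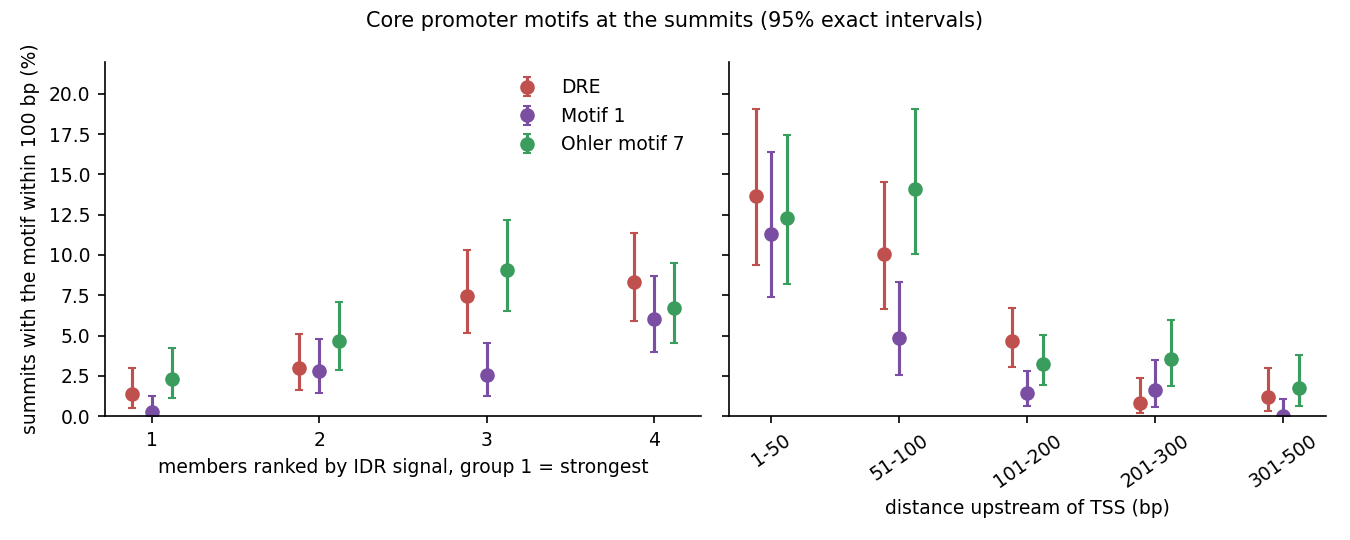
Share of members with DRE, Motif 1 or Ohler motif 7 within 100 bp of the summit in percent (vertical axis) with 95% exact intervals, by group of members ranked on IDR signal (left, 1 is the strongest) and by distance upstream of the TSS in bp (right). DRE is at 1.39% in the strongest group and 8.35% in the weakest, and at 13.7% within 50 bp of the TSS and 1.18% beyond 300 bp.

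Seen from the annotation, 1018 members (59.0%) were intergenic, 525 (30.4%) lay in an intron and 127 (7.36%) in an untranslated exon of a coding gene. Coding exons held 2 members, exons of noncoding genes 44 and introns of noncoding genes 9. For 527 members (30.6%) the nearest TSS was an internal one of its gene, and their median signal was 322.9, beside 282.6 for the 1198 at an outermost TSS. The same order held in replicate 2 (118.5 and 109.5) and replicate 3 (233.7 and 196.8). Distance differed as well: members in introns lay a median of 224 bp upstream and intergenic ones 155.5 bp. Its part in the signal at internal start sites was not tested. The nearest gene had 2 or more TSS positions for 54.7% of members, beside 26.5% of all coding genes. A member was found at 754 of 10246 genes with 1 TSS position (7.36%), 415 of 2566 with 2 (16.2%), 293 of 943 with 3 or 4 (31.1%) and 95 of 190 with 5 or more (50%). A gene with more start sites has more places where a summit can be counted.

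Members were nearest to 1557 of 13945 coding genes, 11.2%, and any promoter summit to 2745, 19.7%. Here and in the gene lists below, each summit was counted for its nearest gene alone. The other gene of a divergent pair was not counted, so counts of genes with a divergent summit are lower bounds. A single member was nearest to 1410 genes, and 133 genes had 2. Rtnl1, a shaper of the endoplasmic reticulum, had 6 over 7 TSS positions, with signals between 183.8 and 2669. SNF4Agamma, a subunit of AMP-activated kinase, had 5 over 11 positions, and Ptpmeg2, a tyrosine phosphatase, and dnc, a cyclic AMP phosphodiesterase, had 4 each. Another IDR summit lay within 500 bp of 10.1% of members (interval 8.76% to 11.7%), beside 7.04% of other summits (6.43% to 7.70%). By chromosome arm, the members' share of IDR summits was lowest on 3L, 18.3%, and highest among the large arms on 2R, 23.6%, with 20.3% for 2L, 21.2% for 3R and 22% for X. On chromosome 4, the smallest chromosome, they were 24 of 44 (54.5%, interval 38.8% to 69.6%).

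Cytoplasmic ribosomal proteins had more genes with members than any other of the 21 lists by number, though not by share. Of the 93 genes, whose proteins build the ribosome that makes most cellular protein, 32 were nearest to a member (34.4%). There were 23 nearest to a divergent summit and 13 nearest to a downstream one. Among all coding genes the shares were 11.2% for members, 5.98% for divergent and 3.49% for downstream summits. The 33 members at ribosomal protein genes lay close to the TSS, 27 of them within 100 bp, beside 460 of all 1725 (26.7%). The median distance was 48 bp, and A+T averaged 58.9%. Signals were moderate, between 178.3 and 577.5 with a median of 277.0. RpL23A had 577.5 in the IDR list, with 232.3 in replicate 2 and 343.1 in replicate 3. RpS4 had 474.1, with 52.2 and 361.9, and RpS5a 438.2, with 229.0 and 205.0. The replicates thus ordered these genes differently. RpL5 had 110.4 in replicate 2 and 27.7 in replicate 3, and 5 of the 33 lacked a partner in 1 replicate. DRE was within 100 bp of 6 of the 33 summits, beside 5.04% of all members. Among all members it was in 13.7% at 1 to 50 bp and 10.1% up to 100 bp.

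The stretches of 61 bases at RpL23A, RpS5a and RpL26, the strongest of this group that could be shown, can be set beside the A+T-rich stretches of the strongest members. Capitals mark Ohler motif 7.
RpL23A at chr3L:1668711-1668771, minus strand: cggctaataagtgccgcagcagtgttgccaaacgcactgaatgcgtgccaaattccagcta
RpS5a at chrX:17148310-17148370, minus strand: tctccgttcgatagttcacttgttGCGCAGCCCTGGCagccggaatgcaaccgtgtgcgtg
RpL26 at chr3L:18899017-18899077, plus strand: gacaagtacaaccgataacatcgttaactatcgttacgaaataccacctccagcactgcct
They held 47.5%, 41.0% and 55.7% A+T.

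The other groups of protein synthesis, turnover and housekeeping can be read beside the shares of all coding genes given above, 11.2% with a member and 5.98% with a divergent summit, and no difference was tested. Translation factors had members at 11 of 53 genes, among them eIF6, eEF1gamma and eIF3c, a subunit of an initiation factor (670.6, with 312.5 in replicate 2 and 360.7 in replicate 3), and 8 of the 11 summits lay within 100 bp. Mitochondrial ribosomal proteins had members at 4 of 75 genes and divergent summits at 16. Aminoacyl-tRNA synthetases had 1 and 7 of 33, and the proteasome 5 and 6 of 48. DRE was at 4 of the 6 proteasome members, beside 5.04% of all members. That share is not matched for distance: 3 of the 6 lay within 100 bp of the TSS. Among all members DRE was in 13.7% at 1 to 50 bp and 10.1% up to 100 bp. Rpn11, the deubiquitinase of the proteasome lid, had a member at 126 bp (signal 332.0) and another at 326 bp (273.5). Oxidative phosphorylation had 7 and 12 of 86, the spliceosome 1 and 6 of 32, nucleoporins 1 and 6 of 25, general transcription factors and RNA polymerase subunits 4 and 8 of 61, and autophagy 2 and 4 of 20. The vacuolar proton pump had 3 and 3 of 34. ND-ASHI of respiratory complex I had the highest signal of the oxidative phosphorylation members, 1623, 254 bp upstream. Start sites of 2 coding genes lay within 500 bp of that summit, which was in an intron of another gene.

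Genes of the ecdysone response, the steroid hormone signal that drives metamorphosis, had the highest share of genes with a member of the 21 lists. Of 32 genes, 14 had a member (43.8%), beside 11.2% of all coding genes. A downstream summit was found at 2 (6.25%, beside 3.49%) and a divergent one, counted for its nearest gene alone, at 0, beside 5.98%. Neither difference was tested. These genes had a mean of 2.47 TSS positions, beside 1.41 over all coding genes. Among the receptors, EcR had a signal of 450.4 (180.7 in replicate 2 and 290.2 in replicate 3), its partner usp 474.0 (197.5 and 289.5) and the nuclear receptor Hr78 657.0 (196.5 and 466.5). E23, an ABC transporter, had 2236 (722 and 1504). Among the transcription factors, Eip93F had a member at 130 bp with 604.3 (75.4 and 518.6) and another at 262 bp with 260.4, Eip74EF had members at 283 and 435 bp, and br had a pair at 193 and 242 bp with 150.8 and 162.7. Of the enzymes that make the hormone, phtm had 183.9 and shd 366.5. Of the 18 members 1, at Hr39, lay within 100 bp of the TSS, beside 26.7% of all members. None held DRE or Motif 1, beside 5.04% and 2.90% of all members. At those shares 18 members are too few to set this apart.

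Regulatory groups were mixed. Among all coding genes, 11.2% had a member, 5.98% a divergent summit and 3.49% a downstream one. Genes of replication and the cell cycle had members at 10 of 39 genes (25.6%) and divergent summits at 2 (5.13%). The E2F partner Dp had 1122 (415.9 in replicate 2 and 712.0 in replicate 3), the replicative helicase subunit Mcm2 776.7 (402.7 and 369.2) and E2f1 372.2. The Mcm2 summit had start sites of 2 coding genes within 500 bp. Mediator had members at 6 of 29 genes (20.7%), Polycomb group genes at 5 of 19 (26.3%) and insulator and promoter factors at 4 of 24 (16.7%). Downstream summits were found at 2, 5 and 5 genes of these lists (6.90%, 26.3% and 20.8%). ph-p, which was counted in both the Polycomb list and the insulator and promoter list, and its neighbour ph-d both had members. BEAF-32, which binds DRE, had 471.6 at 68 bp. The Rab list, whose symbol pattern also takes Rab3-GAP, had members at 5 of 31 genes (16.1%). The endosomal Rab5 had the highest signal of these (1711, with 435.0 in replicate 2 and 1284 in replicate 3). Of gene groups restricted to some tissues, cuticle proteins had members at 2 of 123 genes (1.63%), chemosensory receptors at 1 of 179 (0.559%) and Hox genes at 0 of 8. Neuronal genes had members at 3 of 31 (9.68%), near the share of all coding genes. Among them elav, an RNA-binding protein of neurons, had 2163. The counts were set beside the shares of all coding genes without a test.

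**Figure D5:**
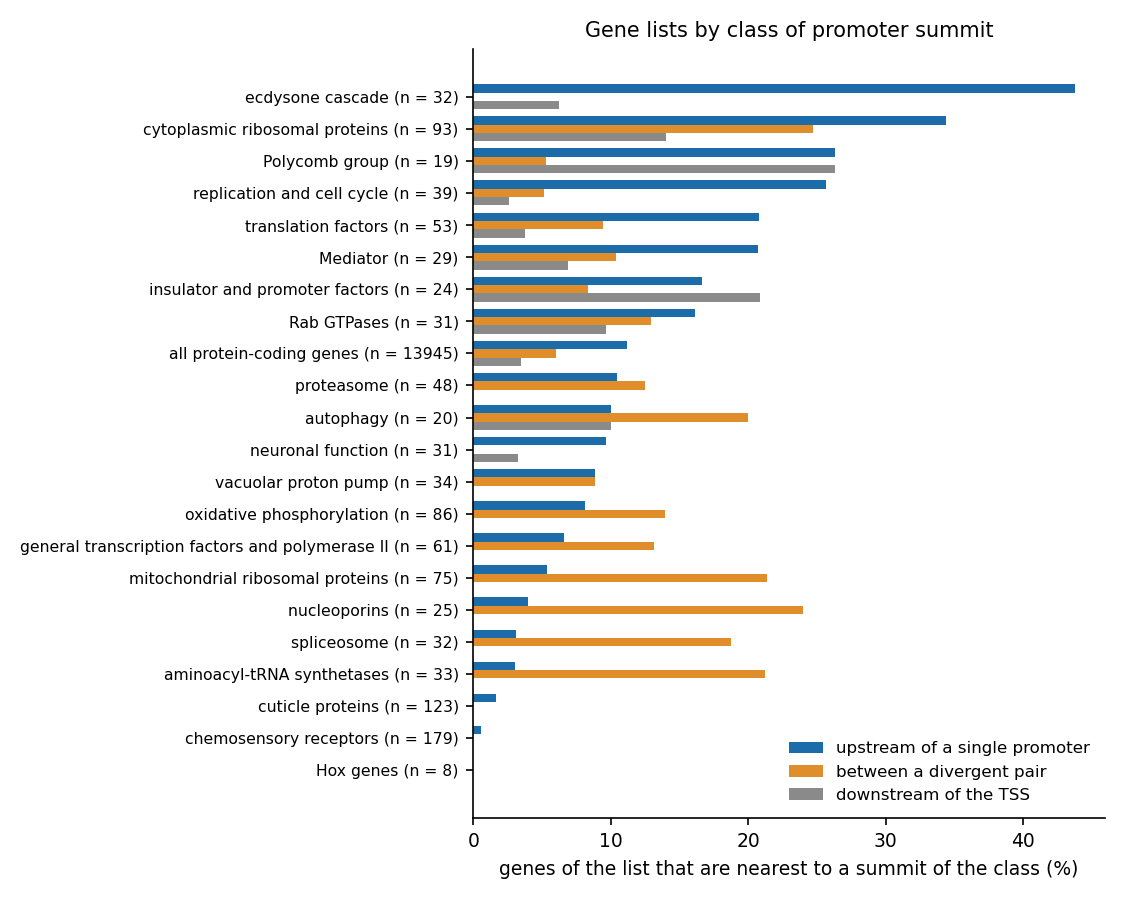
Share of the genes of each list that were nearest to a summit of each class in percent (horizontal axis), with the list and its number of genes on the vertical axis. The ecdysone list has the highest share with a summit upstream of a single promoter, 43.8%, beside 11.2% of all protein-coding genes, and mitochondrial ribosomal proteins have 5.33%.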

How the data were processed

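ChIP-seq peaks were read from lists deposited in narrowPeak layout on dm6. Per the file headers and accompanying descriptions, the authors called 1 list per replicate and 1 on both replicates, each with a control alignment, and derived the IDR list from these. The deposited signal is on a scale the sources do not define. The deposited −log10 q-value reached its ceiling at all 8170 IDR peaks and was not used. The aligner, the caller and its settings, and the threshold of the IDR step are all not given in the sources used here. Read depth is unknown.

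Start sites came from Ensembl release 115 (BDGP6, the same sequence as dm6; chromosome Y left out), with 13945 coding genes, and DNA from RefSeq. Replicate summits were matched within 100 bp. Python 3.11.15, pandas 2.3.3, NumPy 2.4.6 and SciPy 1.17.1 were used. Intervals are 95% Clopper-Pearson. The classification and the window test were tested on simulated data with known answers. The replicates are biological per the labels.

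The members, 16 motifs and 21 gene lists were chosen with earlier results of these data known. Genes named are the 20 strongest members found in both replicates, the 3 weakest, those nearest the 500 bp limit, the strongest per distance class and up to 3 per gene list. Others, such as RpL5, EcR, usp, shd, phtm, Rtnl1 and Rpn11's second summit, were named after their values were seen. The symbols SmG, lat, calypso, Z4, zw5, rbp and Eip55E had no match. Stretches on 1 chromosome arm or overlapping an exon were not printed. Alternatives covered TSS windows, TSS sets, matching distance, motif and flank windows, the stronger 4085 peaks and each replicate's own list.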

Additional observations from a re-analysis of the deposited data

How the results depend on the processing

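The share of members, 21.1%, was 12.5% with a TSS window of 200 bp and 24.8% with 1000 bp, 15.7% with the outermost TSS of each gene, 22.4% with start sites of all genes, and 18.1% with divergent pairs to 1000 bp left out. It was 20.2% without replicate 2 and 22% without replicate 3. The median distance of 171 bp was 111 bp and 200 bp with the 200 and 1000 bp windows and 199 bp in the stronger 4085 IDR peaks, and between 167 and 185 bp with a replicate left out. The difference in median signal, -11.7, was -48.2 with the 200 bp window, changed sign in the stronger IDR peaks (51.7), and was between 0.933 and 1.47 with a replicate left out. The share found in both replicates, 88.0%, was 72.8% with matching within 50 bp, 94.0% within 200 bp, 68.7% against only the strongest peaks of each replicate, as many as the IDR list holds, and 96.5% in the stronger IDR peaks. The count of elements above both flanks, 6, was 2 in the stronger IDR peaks (TATA box and AT repeat), 5 with a 50 bp window (without Ohler motif 6), 7 with flanks at 1000 bp (5 of the 6, with the initiator core and the A tract gained), and between 6 and 7 with a replicate left out (the A tract gained without replicate 2). Settings added after seeing the data gave a member share of 18.9% with 1 coding gene within 500 bp, and a signal difference of 48.9 and 3 elements for members more than 100 bp upstream. Without passing either way, the summit share moved to the other side of the mean of both flanks for GATA (2.96% of members) with flanks at 1000 bp. The same held for CAGCTG and GAGA without replicate 2 (9.76% and 25.6%). Without replicate 3 they were 6.79% and 18.3%, and GAGA was then below both flanks. The cause of these changes was not tested. No paired analysis was possible because there was 1 group of samples. Without read depth, weak summits cannot be told from shallow coverage.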
